A study of Mus musculus with 6 samples.

Results

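Complement components and regulators were followed in RNA sequencing libraries of mouse lens capsules taken at cataract surgery and 5 days later. The 9 genes were chosen by symbol and found in the count tables through their Ensembl identifiers. They were C3, C4b, C1ra, C1s1 and Cfb (components), Serping1, Cd55 and Cd59a (regulators) and Clu (clusterin, a secreted chaperone that also binds terminal complement proteins), 9 of the 56940 genes listed. All animals were wildtype C57BL/6 mice. At surgery the fiber cell mass was taken out of the lens through the front, and the capsule with its lens epithelial cells (LEC) stayed in the eye. The 3 libraries of 0 h and the 3 of 5 days were each made from 5 pooled capsules. Mice had their second eye operated on 5 days after the first, and the 0 h capsules are those of the second eye, so no group came from an animal without surgery.

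Complement is a cascade of plasma and tissue proteins that marks and lyses cells and calls in leukocytes. In the classical pathway C1q, with its proteases C1r and C1s, cleaves C4 and C2, in the alternative pathway factor B joins C3b, and each route ends in cleavage of C3. Host cells hold the cascade back with C1 inhibitor (Serping1), which inactivates C1r and C1s, with CD55, which breaks up C3 convertases, and with CD59, which blocks the membrane attack complex. The eye is known to keep a low level of complement activity that such regulators restrain.

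At 5 days transcripts of 3 components were higher and those of Clu and 2 regulators lower. C3 rose 7.74-fold, C1s1 1.93-fold and C4b 1.86-fold. Clu fell 2.48-fold, Cd59a 2.16-fold and Serping1 1.44-fold. Of the 9 genes, 8 had counts and passed the low-count filter. Of these 8, 3 were called higher, 3 lower and 2 (C1ra and Cd55) were not called, at a threshold of 0.05 for p-values of the quasi-likelihood test of edgeR, adjusted by Benjamini and Hochberg over 14676 genes. Calls were common in this comparison: 47.6% of all tested genes were called, 25.1% higher and 22.5% lower, so that 6 of 8 called is a count from few genes against a high background. The groups did not overlap for 6 of the 8 members (2 higher, 4 lower), against 58.1% of all tested genes (29.9% higher and 28.2% lower). The median log2 fold change of the 8 was 0.06, beside -0.01 over all tested genes. In bulk samples such as these, fewer cells of a type and less RNA per cell cannot be told apart.

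**Figure D1:**
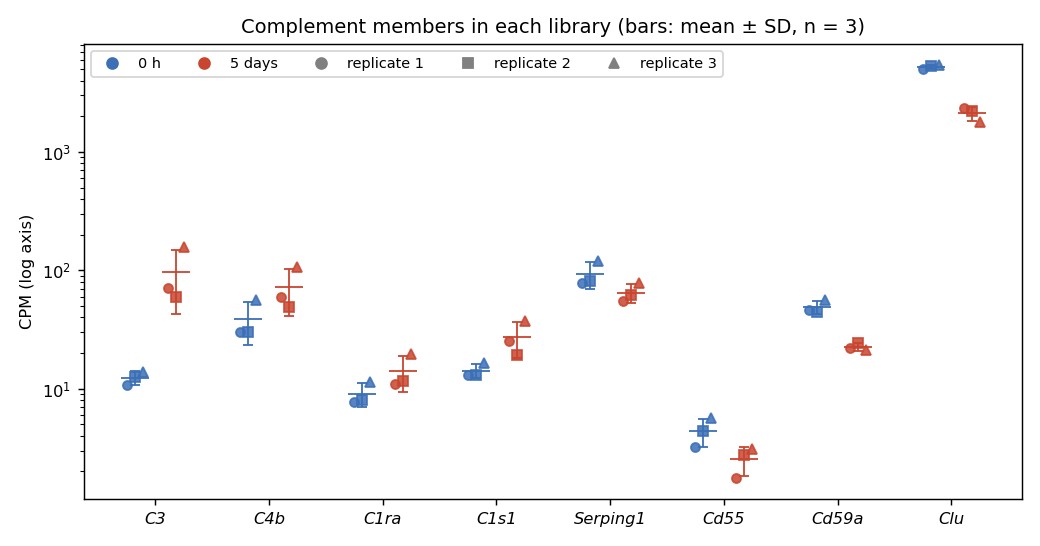
Normalised counts (CPM, log axis) of the 8 members with counts, by gene, in 0 h (blue) and 5 day (red) libraries, with symbols for the replicates and bars for the mean ± SD (n = 3). C3 lies at 10.6 to 13.9 at 0 h and at 59.5 to 157 at 5 days, and Clu at 5034 to 5435 against 1785 to 2354.

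The libraries held 6207387 to 9774343 gene counts, and correlations of log2 CPM were 0.965 to 0.979 within a time. All 12 lens epithelial markers examined had counts at both times, and 9 of them, such as Foxe3, fell. Of all tested genes 22.5% were called lower. Pax6 was called higher (log2 fold change 0.28), and Sox2 and Six3 were not called. Lens fiber markers summed to 65340 to 74500 CPM at 0 h and 4157 to 13630 at 5 days, and 9 of 9 tested were called lower. Retinal RNA was also present, with 10 photoreceptor markers summing to 605.3 to 901.7 CPM at 0 h and 47.9 to 127.1 at 5 days. Markers of iris, ciliary and pigment epithelium summed to 124.7 to 175.7 CPM at 0 h and 23.2 to 50.3 at 5 days, with 3 of 8 tested called lower. Markers of macrophages and monocytes rose for 12 of 12 genes, from summed levels of 19 to 40.2 CPM to 521.2 to 759.3. Several, such as Ccr2 (0 counts over the 0 h libraries), Aif1 (3) and Tyrobp (13), reached the filter because of their 5 day counts. These had little room to be lower. Over all tested genes 25.1% were called higher. Within the 0 h group, replicate 3 had the highest CPM for 8 of 8 members with counts, and within the 5 day group replicate 3 had it for 6 of 8. Replicate 3 at 0 h also had the highest sums of its group for macrophage markers (40.2 CPM against 19 and 19.9) and photoreceptor markers (901.7 against 670.1 and 605.3). The part of these cells in the members' values was not tested.

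C3 (ENSMUSG00000024164), the protein on which all routes meet, stood at 10.6, 12.6 and 13.9 CPM in the 0 h libraries and at 71.3, 59.5 and 156.9 CPM in those of 5 days. Every library of 5 days lay above every library of 0 h, and replicate 3 at 5 days was more than 2 times the others. The mean rose from 12.4 ± 1.67 to 95.9 ± 53.1 CPM (SD, n = 3), which is 2.95 (SE 0.32) as a log2 fold change, with an adjusted p of 1.17e-05 by edgeR. Without replicate 3 at 5 days the C3 log2 fold change was 2.38.

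Cfb (ENSMUSG00000090231), which codes for factor B, the protease of the alternative pathway, had no count in any of the 6 libraries. A count of 0 among 48592086 gene counts allows a level of up to 0.0617 CPM, a limit that covers counting error alone. In the GENCODE M21 annotation 79.5% of the exon bases of Cfb are shared, on the same strand, with Gm20547, a gene model that also covers exons of the neighbouring C2, and Gm20547 was also listed at 0. C2, the substrate of C1s beside C4, of which 42.8% of exon bases are shared in the same way, had 13 counts over all libraries. HTSeq in its usual mode gives a read that matches more than 1 gene to none of them. The counting mode was not found in the labels, and the annotation of the counts may differ from M21, so the 0 for Cfb cannot be read as a lack of transcript, and the part of the overlap was not tested.

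C4b (ENSMUSG00000073418), the substrate of C1s, stood at 29.9, 29.9 and 56.2 CPM at 0 h and at 60, 48.9 and 106.6 CPM at 5 days. The groups overlapped, since replicate 3 at 0 h was above replicate 2 at 5 days. The mean rose from 38.7 ± 15.1 to 71.8 ± 30.7 CPM (n = 3), by 0.90 (SE 0.29) as a log2 fold change, with an adjusted p of 0.0228 by edgeR. The C4b call was lost when replicate 1 (0.74) or 2 (0.73) of 0 h or replicate 3 of 5 days (0.48) was left out, and with DESeq2 (0.91, adjusted p = 0.098). C4b has a close copy, C4a, which had 51 counts over all libraries against 2706 for C4b, and the split of reads between them is uncertain.

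C1r and C1s, the proteases that C1q activates, are encoded by C1ra (ENSMUSG00000055172) and C1s1 (ENSMUSG00000038521). C1s1 stood at 12.9, 13.2 and 16.4 CPM at 0 h and at 25.1, 19.3 and 37.2 CPM at 5 days, with no overlap between the groups. It rose from 14.2 ± 1.97 to 27.2 ± 9.13 CPM (n = 3), by 0.95 (SE 0.23) as a log2 fold change, with an adjusted p of 0.00447 by edgeR. C1ra stood at 7.68, 8.01 and 11.4 CPM at 0 h and at 11, 11.7 and 19.5 CPM at 5 days, so that replicate 3 at 0 h overlapped replicate 1 at 5 days. The C1ra log2 fold change was 0.64 (SE 0.27) and was not called, with an adjusted p of 0.0647 by edgeR. C1ra was called higher with total library size (0.78), with no low-count filter (0.65), and without replicate 3 at 0 h (0.84), replicate 1 at 5 days (0.79) or replicate 2 at 5 days (0.78). The copies C1rb and C1s2 had 2 and 24 counts over all libraries. In GENCODE M21 18.4% of the exon bases of C1s1 are shared with Gm16567 on the opposite strand. Since the strand setting of the counting is not given, the C1s1 reads there are uncertain.

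Serping1 (ENSMUSG00000023224), the inhibitor of those proteases, stood at 78.1, 81.2 and 120.7 CPM at 0 h and at 54.9, 61.8 and 77.5 CPM at 5 days. The highest library of 5 days was just under the lowest of 0 h. Serping1 fell from 93.3 ± 23.7 to 64.7 ± 11.6 CPM (n = 3), which is -0.52 (SE 0.17) as a log2 fold change, with an adjusted p of 0.0251 by edgeR. The Serping1 call was lost with total library size (-0.39) and without replicate 3 at 0 h (-0.30), replicate 1 at 5 days (-0.42) or replicate 2 at 5 days (-0.48).

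Among the membrane regulators, Cd59a (ENSMUSG00000032679), which blocks the last step of pore formation, stood at 46.6, 44.3 and 55.8 CPM at 0 h and at 22, 24.5 and 21.3 CPM at 5 days. The 5 day libraries lay close together and all were below those of 0 h. Cd59a fell from 48.9 ± 6.07 to 22.6 ± 1.66 CPM (n = 3), which is -1.11 (SE 0.13) as a log2 fold change, with an adjusted p of 2.34e-05 by edgeR. Cd55 (ENSMUSG00000026399) had the lowest level of the members with counts. It stood at 3.23, 4.39 and 5.6 CPM at 0 h and at 1.75, 2.76 and 3.07 CPM at 5 days. The Cd55 groups did not overlap, but its log2 fold change of -0.78 (SE 0.38) was not called, with an adjusted p of 0.109 by edgeR. The Cd55 values rest on 111 counts over the 0 h libraries and 61 over those of 5 days. The part of depth in the missing call was not tested.

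Clu (ENSMUSG00000022037) was by far the most abundant member. It stood at 5034, 5299 and 5435 CPM at 0 h and at 2354, 2210 and 1785 CPM at 5 days, with no overlap and with replicate 3 at 5 days the lowest. The Clu log2 fold change was -1.31 (SE 0.14) with an adjusted p of 1.02e-05 by edgeR. It lay between -1.40 and -1.22 with any single library left out.

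Levels of different genes were compared as CPM per kb of merged exon length from GENCODE M21. At 0 h Clu stood at 1530 ± 59.3 CPM per kb (n = 3), followed by Serping1 at 40.1, Cd59a at 27, C4b at 6.79, C1s1 at 4.53, C1ra at 3.03, C3 at 2.41 and Cd55 at 0.908. In this order C4b was not apart from C1s1, nor C1ra from C3, since their libraries overlapped. At 5 days Clu stood at 616 ± 86 CPM per kb, Serping1 at 27.8 and C3 at 18.6, followed by C4b at 12.6, Cd59a at 12.5, C1s1 at 8.7, C1ra at 4.71 and Cd55 at 0.521. C3 thus stood below all but Cd55 at 0 h and below only Clu and Serping1 at 5 days, where its libraries (11.6 to 30.5) overlapped those of Serping1, C4b, Cd59a (11.8 to 13.5) and C1s1 (6.18 to 11.9), so its place among these was not settled. In the order of 5 days, each member from Serping1 down to C1s1 overlapped the next.

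Ratios of counts within a library do not depend on how libraries are scaled. The log2 ratio of Serping1, the inhibitor, to C1s1, its target protease, was 2.59, 2.62 and 2.87 at 0 h and 1.12, 1.67 and 1.06 at 5 days, a difference of -1.41, or 2.65-fold less inhibitor per protease transcript. The Cd59a to C3 ratio went from 1.98 ± 0.16 to -1.95 ± 0.83 on the log2 scale (n = 3), so that C3 passed from fewer to more counts than Cd59a. Those counts are not divided by gene length, and per kb the libraries of C3 and Cd59a overlapped at 5 days. The Cd55 to C3 ratio differed by -3.61, the C4b to C3 ratio by -1.94 and the Clu to C3 ratio by -4.14 on the log2 scale. These 5 ratios did not overlap between the times, each at p = 0.1 in an exact permutation test (two-sided), a value that 3 against 3 libraries cannot go below (0.12 after Benjamini-Hochberg adjustment over 6 ratios). The C1s1 to C1ra ratio, of partner proteases in 1 complex, overlapped between the times, with a difference of 0.29 and an exact p of 0.2. Of these ratios 4 share C3 as the divisor and are not independent, and the ratio of Cfb to C3 could not be computed.

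**Figure D2:**
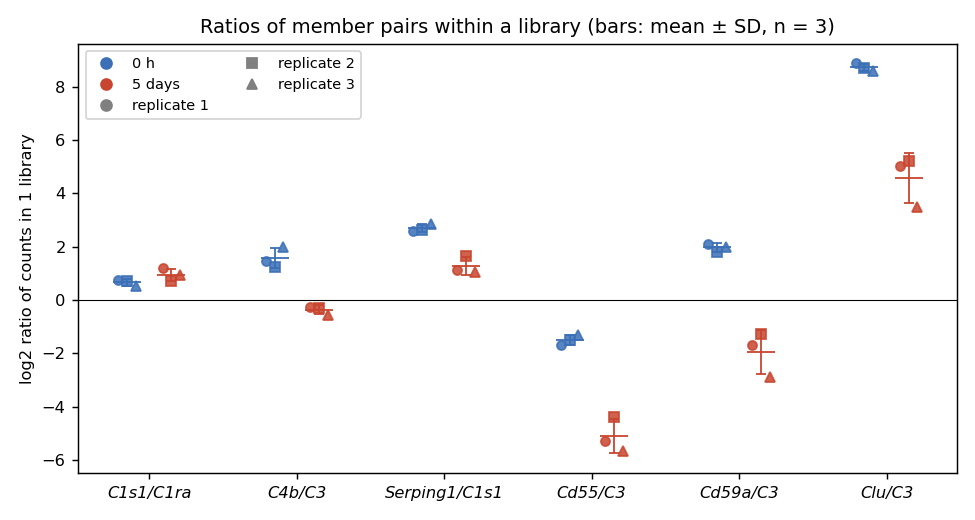
Log2 ratio of the counts of 2 members in the same library (0.5 counts added to each), for 6 pairs, in 0 h (blue) and 5 day (red) libraries, with bars for the mean ± SD (n = 3). The points of the times are apart for every pair other than C1s1/C1ra, which differs by 0.29.

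Promoter sequences from RefSeq (build GRCm38.p6, 250 bases before to 50 after the annotated start) were found for 5 of the 9 members, C1ra, C1s1, C3, Cd55 and Cd59a. That build is older than the GRCm39 build of the counts. The sequences below are those of C3, which had the largest rise, of the partner genes C1ra and C1s1, and of Cd59a, which fell. They were searched on either strand for TTCNNNGAA (the GAS pattern of STAT factors), GAAANNGAAA (interferon regulatory factors), TTGCNNAA (C/EBP), TGANTCA (AP-1), GAANNTTCNNGAA (heat shock factor) and the NF-κB consensus, and matches are in capitals. The sequence of C3 is at chr17:57228087-57228386 (minus strand), of C1ra at chr6:124512371-124512670 (plus strand), of C1s1 at chr6:124542310-124542609 (minus strand, the more upstream of 2 starts) and of Cd59a at chr2:104095551-104095850 (plus strand).
C3: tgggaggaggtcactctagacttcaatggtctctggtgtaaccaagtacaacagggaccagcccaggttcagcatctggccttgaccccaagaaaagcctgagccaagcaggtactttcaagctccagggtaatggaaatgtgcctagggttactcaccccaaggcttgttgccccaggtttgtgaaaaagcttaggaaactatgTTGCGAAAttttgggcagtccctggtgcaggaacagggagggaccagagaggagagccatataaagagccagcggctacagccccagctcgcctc
C1ra: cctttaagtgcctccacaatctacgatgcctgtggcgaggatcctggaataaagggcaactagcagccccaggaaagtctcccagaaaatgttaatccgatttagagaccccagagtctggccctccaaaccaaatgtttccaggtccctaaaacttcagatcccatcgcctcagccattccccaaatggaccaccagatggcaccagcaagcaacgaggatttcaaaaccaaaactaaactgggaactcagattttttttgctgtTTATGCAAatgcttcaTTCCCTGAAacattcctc
C1s1: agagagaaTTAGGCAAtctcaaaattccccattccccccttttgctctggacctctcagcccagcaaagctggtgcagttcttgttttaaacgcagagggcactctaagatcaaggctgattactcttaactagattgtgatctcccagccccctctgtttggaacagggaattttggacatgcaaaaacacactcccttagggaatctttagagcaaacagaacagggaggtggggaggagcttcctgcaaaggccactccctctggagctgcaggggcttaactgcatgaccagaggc
Cd59a: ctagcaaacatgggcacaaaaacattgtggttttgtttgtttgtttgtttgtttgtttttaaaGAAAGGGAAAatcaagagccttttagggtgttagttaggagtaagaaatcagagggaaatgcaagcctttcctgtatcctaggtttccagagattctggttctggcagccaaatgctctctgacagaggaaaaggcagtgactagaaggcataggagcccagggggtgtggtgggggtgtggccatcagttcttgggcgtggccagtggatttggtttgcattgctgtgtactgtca
C3 had a C/EBP match (TTGCGAAA) that begins 45 bases before the start. C1ra had a C/EBP match (TTATGCAA) and a GAS match (TTCCCTGAA) shortly after the start, and C1s1 a C/EBP match (TTAGGCAA) near the far end of the window shown, while the window of its other start held none of the 6 patterns. Cd59a had a match for interferon regulatory factors (GAAAGGGAAA), and Cd55 had none of the 6. Among 32851 RefSeq promoters of this length 10.8% held the C/EBP pattern, 8.3% the GAS pattern and 3.44% the pattern of interferon regulatory factors. A match describes letters in this window and shows no binding.

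The other genes of the cascade were taken from a list of 54 complement genes that includes the 9 members. Of these, 27 passed the filter, 16 were called higher and 6 lower, and the median log2 fold change was 0.95. Without the members, 19 of 45 were tested, 13 were higher and 3 lower, and the median was 2.81. Of all 14676 tested genes 25.1% were called higher and 22.5% lower, and their median was -0.01. Listed genes with almost no counts at 0 h reached the filter because of their 5 day counts and had little room to be lower. The counts of the list therefore lean upward.

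The C1q chains, which recognise the targets of the classical pathway and are made mainly by macrophages, rose together. C1qa rose from 1.84 ± 1.11 to 60 ± 11.8 CPM (n = 3), by 5.06 (SE 0.28) on the log2 scale, C1qb by 4.65 and C1qc by 4.72. Their summed level was 6.46, 3.95 and 7.15 CPM at 0 h and 202.1, 152.1 and 138.8 CPM at 5 days. Replicate 1 at 5 days was highest for this sum and for the summed macrophage markers (759.3 CPM against 521.2 and 582.3), whereas C3, C4b, C1ra and C1s1 were highest in replicate 3. Replicate 3 at 5 days also had the highest sums of its group for fibroblast and pericyte markers (1746 CPM against 1155 and 1195), endothelial markers (55.3 against 37.9 and 29.8) and photoreceptor markers (127.1 against 75.4 and 47.9). Between the times, 5 of 7 tested fibroblast and pericyte markers rose and 2 fell, and 4 of 6 tested endothelial markers rose. Those 4 (Cldn5, Tek, Pecam1 and Cdh5) had 0, 6, 12 and 17 counts over the 0 h libraries. Of the fibroblast and pericyte markers that rose, Lum, Rgs5 and Cspg4 had 6, 25 and 32. All of these reached the filter because of their 5 day counts and had little room to be lower. Over all tested genes 25.1% were called higher. Of 10 neutrophil markers only 3 were tested, S100a9, Cxcr2 and Csf3r, and these rose. They had 0, 0 and 5 counts over the 0 h libraries and passed the filter through their 5 day counts. Csf3r made most of the neutrophil sum, and Mpo, Elane, Ly6g and Camp had no count in any library. At 0 h the fibroblast and pericyte sums were 552 to 586 CPM, mostly Pdgfra (mean 335.4) and Pdgfrb (220.1), with Col1a1 at 6.57 and Dcn at 2.1. Col1a1 made most of the 5 day sum of replicate 3 (1349 CPM, against 708.2 and 773.2 in the others). Pdgfrb, Dcn, Lum and Cspg4 were also highest there, and Pdgfra was lowest (130.6 against 232.7 and 211.6). Endothelial sums were 7.81 to 14.7 at 0 h. Neutrophil sums were 0 to 0.329 at 0 h and 15.6 to 27.2 at 5 days. The part of these cells in the members' rises was not tested. In the alternative pathway, properdin (Cfp), which stabilises the C3 convertase, rose by 1.92 (SE 0.28). Cfd, which codes for factor D, was listed at 0 in all 6 libraries.

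**Figure D3:**
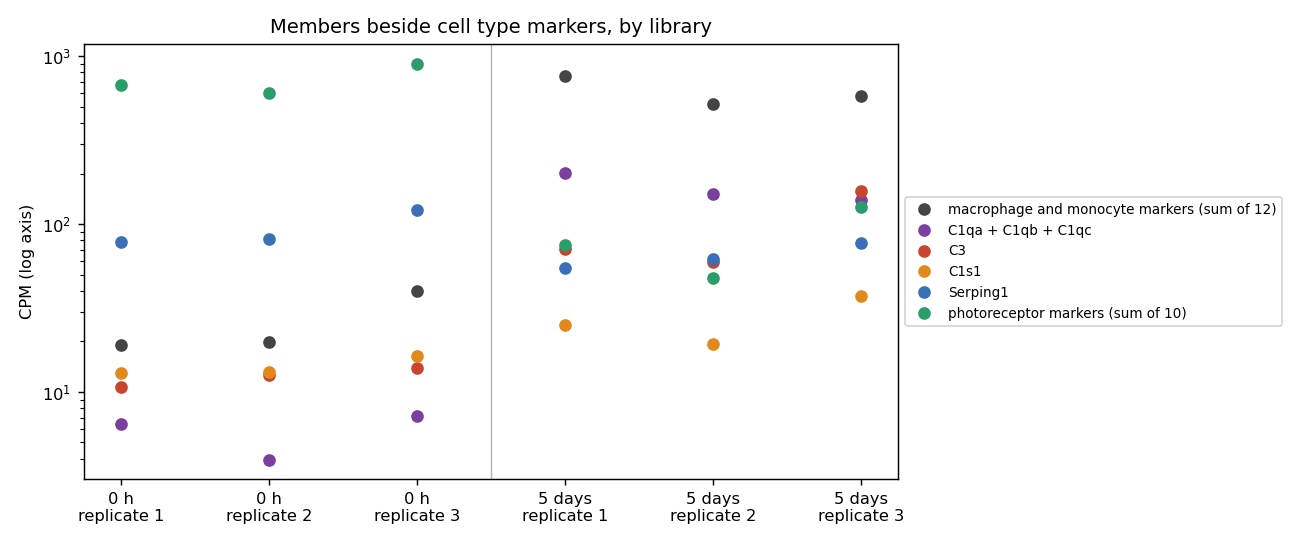
CPM (log axis) of C3, C1s1 and Serping1, the sum of the C1q chains and the sums of macrophage and photoreceptor markers in each library. Macrophage markers and C1q are highest in replicate 1 of 5 days (759.3 and 202.1 CPM), and C3 in replicate 3 (156.9 CPM).

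The receptors for complement fragments rose for 6 of 6 tested genes of 8 listed, genes that are expressed mainly in myeloid cells. Over all tested genes 25.1% were called higher. The 6 receptors had only 3 (Itgax) to 20 (Itgb2) counts over the 0 h libraries. They reached the filter because of their 5 day counts and had little room to be lower. C3ar1, the receptor for C3a, rose from 0.558 ± 0.0922 to 17.9 ± 1.36 CPM (n = 3), by 4.95 (SE 0.29) on the log2 scale. The C5a receptors C5ar1 and C5ar2 rose by 3.77 and 2.81, with C5ar1 values of 3.14 without replicate 2 at 0 h and 4.36 without replicate 3 at 0 h. The C5ar2 log2 fold change was 3.84 without replicate 2 at 0 h and 2.25 without replicate 3 at 0 h. The integrin chains of complement receptors 3 and 4 rose as well, Itgb2 by 6.05 and Itgam by 5.82, with an Itgam value of 7.78 without replicate 3 at 0 h. In GENCODE M21 68.7% of the exon bases of Itgam are shared with Gm49368 on the same strand, so its counts are uncertain. Itgax was 243.8-fold higher (95% exact counting interval 83.1 to 1185), and its 3 counts at 0 h all lay in replicate 1. The summed macrophage markers rose in the same libraries, and their part in the receptors was not tested.

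Of the other membrane regulators, Cr1l (Crry), the rodent inhibitor of C3 convertases, rose from 20 ± 1.76 to 28.1 ± 0.972 CPM (n = 3), by 0.49 (SE 0.14) on the log2 scale. The Cr1l call was lost when crystallin, mitochondrial and ribosomal RNA genes were left out of the scaling (0.33, adjusted p = 0.0666 by edgeR). Susd4, which restrains the classical pathway, fell from 32 ± 1.42 to 6.48 ± 1.55 CPM (n = 3), which is -2.32 (SE 0.19) on the log2 scale. Csmd1, a large membrane protein with complement control domains, rose from 0.998 ± 0.787 to 46.2 ± 11.5 CPM (n = 3), by 5.50 on the log2 scale, or by 6.35 when replicate 3 of 0 h was left out. Cd46 and Cd59b, a copy of Cd59a, were not called, at -0.71 (SE 0.43) and 0.30 (SE 0.42). Cd46 shares exon bases with the antisense gene A330023F24Rik, and since the strand setting of the counting is not given its reads are uncertain.

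Among the other fluid-phase regulators, vitronectin (Vtn), which binds terminal complexes, fell by 1.87 on the log2 scale (SE 0.35), with a Vtn value of -2.46 when replicate 3 of 5 days was left out. Factor I (Cfi), C4bp, Cpn1 and Cpn2 did not pass the filter, with at most 4 counts over any group.

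In the lectin pathway Colec11, a soluble collectin, fell from 2.39 ± 0.499 to 0.495 ± 0.277 CPM (n = 3), and the scavenger receptor Colec12 was not called at 0.38 (SE 0.23). Masp1, a protease of this pathway, did not pass the filter, with 4 counts over the 0 h libraries, all in replicate 3, and 53 over those of 5 days. Mbl1, Mbl2, Fcnb and Colec10 had no count, and Fcna and Masp2 had few and did not pass. In GENCODE M21 54.9% of the exon bases of Masp2 are shared with Tardbp on the opposite strand, so its counts are uncertain. The terminal pathway (Hc, C6, C7, C8a, C8b, C8g and C9) had 0 of 7 genes past the filter, with a summed level of at most 2.29 CPM in any library, so changes in most genes of the membrane attack complex were not detectable at this depth. C8g had 19 counts over the 0 h libraries and 1 over those of 5 days, a ratio of 0.0561 (95% exact counting interval 0.00135 to 0.353). C8b had 10 and 0 counts, with 9 of the 10 in replicate 1 at 0 h. The receptor genes Cr2 and Vsig4 did not pass either, nor did Cd55b, a copy of Cd55, with 8 and 0 counts.

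**Figure D4:**
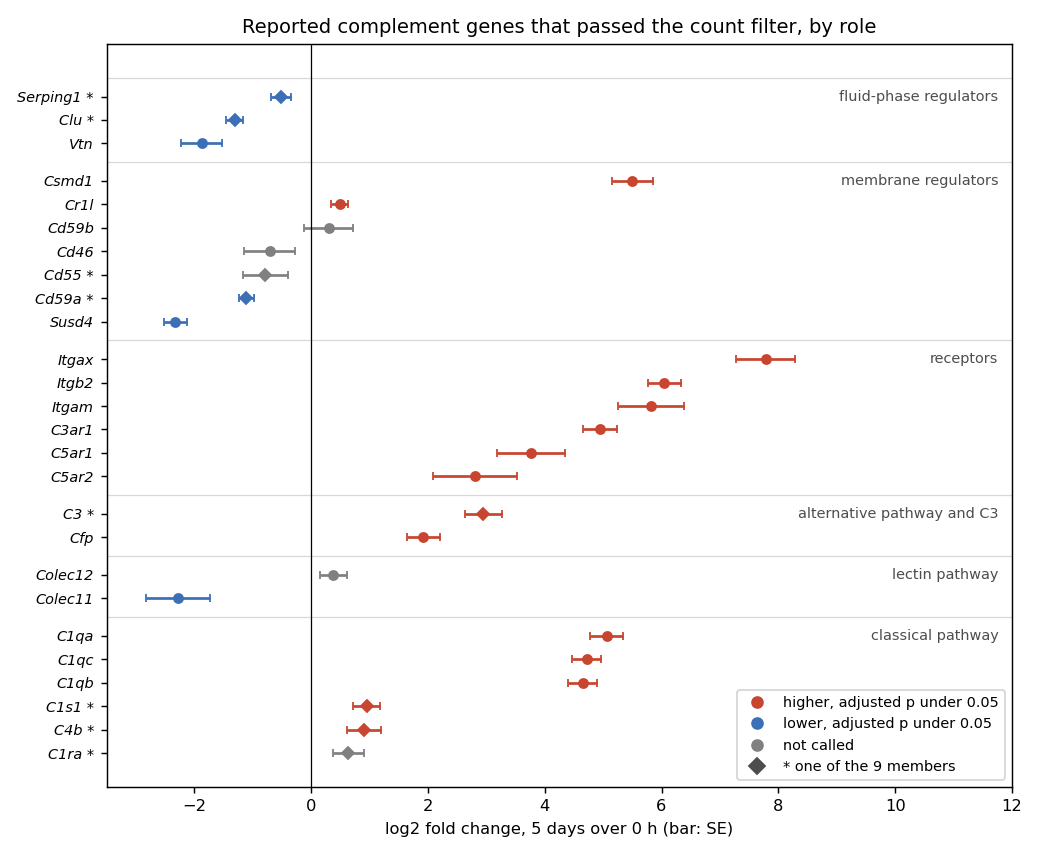
Log2 fold change of 5 days over 0 h with its SE for the reported complement genes that passed the filter, grouped by role, red for higher, blue for lower and grey for not called. Itgax, Itgb2, Itgam, Csmd1 and C1qa lie above 5, and the members (diamonds) lie between -1.31 (Clu) and 2.95 (C3); the value drawn for Itgax rests on 3 counts at 0 h.

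Of 24 genes of cytokines, receptors, transcription factors and acute phase proteins linked to complement expression, 19 were tested and 16 rose. Over all tested genes 25.1% were called higher. Il6st (-0.13) and Rela (0.31) were among the listed genes not called by edgeR. Il6, the main inducer of acute phase genes, had no counts at 0 h and stood at 7 to 9.42 CPM at 5 days, at least 67.5-fold higher when 3 counts are set as the floor of the whole 0 h group. The related cytokine Lif and the receptor Il6ra rose by 4.84 and 4.73, and the acute phase protease inhibitor Serpina3n went from 13.6 ± 2.12 to 6944 ± 2410 CPM (n = 3), a called rise. Haptoglobin (Hp) was 41.6-fold higher (95% exact counting interval 11.1 to 349.4), and its 2 counts at 0 h lay in replicate 1. Il6, Hp and Il6ra (8 counts over the 0 h libraries) reached the filter because of their 5 day counts. They had little room to be lower, so the count of rises leans upward. Of the transcription factors, Cebpd rose by 3.05, Cebpb by 3.00, Irf1 by 1.72 and Stat3 by 0.86. Ifng, the interferon that induces many complement genes, had no count in any library.

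Over the 6 libraries, the profiles closest to that of C3 among 4816 genes whose log2 CPM averaged 5 or more were Acsl4, an acyl-CoA synthetase (root mean square difference of 0.225 between log2 CPM profiles centred on their means), Vcl (vinculin, 0.241) and Myh9 (non-muscle myosin, 0.242). The closest to Clu were Pja1, a ubiquitin ligase (0.052), Igfbp7 (0.055) and Use1 (0.0571). With 2 times and 6 libraries such likeness is mainly a like change between the times, and it is given as a description.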

How the data were processed

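The values are raw counts per Ensembl gene for 6 libraries, as the authors deposited them. The submitters' processing notes name HISAT2, HTSeq and edgeR, and build GRCm39. Per the labels' protocols RNA was total RNA, with a SMARTer Stranded Total RNA-Seq Pico kit. Tool versions, the annotation used, and HTSeq's mode and strand option were not found in the labels or headers, so overlapping genes and close copies are uncertain. Summary entries that name no gene (32.26 to 42.55% of reads) were left out. GENCODE M21 gave symbols (91.23% of 56940 genes), exon lengths and overlaps.

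Genes were kept by edgeR's default filter, scaled with TMM and tested with the quasi-likelihood test (edgeR 4.0.16, R 4.3.3), checked on simulated data, with time as the only factor and Benjamini-Hochberg adjustment over all 14676 tested genes. CPM values use the same scaling. Ratios add 0.5 counts. The members and lists were chosen with earlier results of these data known. All 9 members are named, every complement gene that passed the filter other than a gene not reported here, the 5 called inducers with the largest change (Il6 among them), in any case Il6, Stat3, Irf1, Cebpb and Cebpd, and the 3 genes closest to C3 and to Clu. Il6st, Rela, Ifng and the marker genes were named in addition, after values were seen. The series text calls the pools biological replicates. Alternatives were other scalings and filters, DESeq2 1.42.0, limma-voom (limma 3.58.1), a replicate block, leaving out each library, and 0 or 5 counts added in ratios. Figures used matplotlib 3.10.9.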

Additional observations from a re-analysis of the deposited data

How the results depend on the processing

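Across 14 alternatives for each of the 8 tested members (112 values), 98 kept their direction and their side of the threshold, 8 lost a call, 6 gained one and 0 reversed. C3, C1s1, Cd59a, Clu and Cd55 kept theirs under all 14. The calls that changed, for C4b, C1ra, Serping1 and Cr1l, are given beside those genes, except for the block below, and the cause was not tested. With single libraries left out, 2 to 4 members were called higher and 2 to 3 lower, 15 to 18 of the complement list higher and 5 to 6 lower, and 6151 to 6890 of all genes were called. Differences in log2 ratios then ranged from -4.26 to -3.46 for Cd59a to C3, from -1.60 to -1.29 for Serping1 to C1s1 and from 0.17 to 0.40 for C1s1 to C1ra. The titles give the same sample numbers to each time. Over all tested genes same-numbered libraries did not deviate together (r = 0.0385, -0.0897 and 0.0434), so the numbers were not taken as pairs. Of the members, C3, C4b, C1ra, C1s1, Serping1 and Cd55 were nevertheless highest in replicate 3 at both times. The library names of samples 2 and 3 of 5 days carry other numbers than their titles, so the title numbers may not be those of the pools, which limits what these r values and the block show. With a replicate block 4 members were higher, C1ra among them (0.62, adjusted p = 0.0304 by edgeR), 3 were lower, and 6738 of all genes were called. The block made the SE smaller for C3 (0.198), C4b (0.116), C1ra (0.211), C1s1 (0.179) and Serping1 (0.105). It made the SE larger for Cd55 (0.4), Cd59a (0.144) and Clu (0.175). Total library size shifted log2 fold changes by a median of 0.13 and gave 62.9% of all calls upward, against 52.7% with TMM. Leaving crystallin, mitochondrial and ribosomal RNA genes out of the scaling shifted them by -0.163 and gave 40.3%. All 8 tested members kept their direction under each scaling. Depth limits most of the terminal pathway, and its part in the missing call of Cd55 was not tested.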
